A study of Mus musculus with 72 samples.

Results

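The genes described here are 10 feedback regulators and targets of NF-κB, taken by symbol from the 50600 genes of the count table: Nfkbia, Nfkbiz, Tnfaip3, Relb, Nfkb1, Nfkb2, Birc3, Bcl3, Icam1 and Ier3. All 10 were found and followed in each of the 72 libraries. They were chosen with earlier results of these data known, so their counts beside shares of all genes are descriptions. The libraries came from 6 mouse melanoma lines, each driven by the transgene Tyr::NRASQ61K/°. Lines 1057 and 1064 are female, carry Cdkn2a-/- and Tyr::CreA/° together with the deleted E-cadherin allele Cdh1dF/dF, and express the gastrin-releasing peptide receptor gene Grpr on their own. Line 1181 is male, with Cdkn2a-/- and with Cdh1dF/dF in its label but without the Cre transgene (°/°), and was used with CMV::Grpr/tGFP (1181-Grpr) or with CMV::tGFP (1181-Ctrl). Line 1014 is female with no other allele in its label, and was used with the same constructs (1014-Grpr and 1014-Ctrl). Grpr in these last lines is thus driven by a viral promoter, and each line is a single cell line. After 18 h of starvation in 0.5% serum, the cells received mock treatment (0.1% DMSO), 10 nM of the ligand GRP, 1 µM of RC-3095 (RC), an antagonist of GRPR, or both agents (GRP+RC) for 4 h. There were 3 replicates of each line and treatment, which the labels do not describe as separate cultures. The study's methods speak of biological replicates for cell culture work in general and not for these libraries by name, so the p-values measure the spread between the libraries, which may be technical.

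NF-κB is a family of dimeric transcription factors held in the cytoplasm by inhibitor proteins until a kinase complex marks the inhibitors for destruction. The freed dimers switch on genes that include their own inhibitors and subunits, so that the signal limits itself after it starts. G-protein-coupled receptors that activate protein kinase C can feed into this pathway through a CARD, BCL10 and MALT1 complex, and in melanoma NF-κB is known for its link to survival and inflammatory genes. Among the 10 genes, Nfkbia (IκBα), Nfkbiz (IκBζ), Bcl3 and Tnfaip3 (the ubiquitin-editing enzyme A20) encode inhibitors or modulators. Relb, Nfkb1 (p105 and p50) and Nfkb2 (p100 and p52) encode subunits. Birc3 (an inhibitor-of-apoptosis ubiquitin ligase), Ier3 (an immediate early stress-response protein) and Icam1 (an adhesion molecule for leukocytes) are classical targets.

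The libraries held 19512882 to 46862053 counted reads (median 28112904.5), and a floor of 3 counts was at most 0.154 CPM, the read count of a gene scaled to library size. From mock to GRP, by replicate number, Grpr went from 126, 107 and 141 CPM to 399, 570 and 620 CPM in 1014-Grpr. In 1181-Grpr it went from 17.7, 9.03 and 8.49 CPM to 79.9, 19.1 and 39.5 CPM. In 1057 it went from 274, 275 and 273 CPM to 205, 197 and 210 CPM. In 1064 it went from 951, 1284 and 786 CPM to 472, 508 and 519 CPM. These values are given without a test. Over all treatments, Grpr lay between 187 and 275 CPM in 1057 and between 472 and 1284 CPM in 1064. It lay between 107 and 620 CPM in 1014-Grpr and between 8.49 and 79.9 CPM in 11 libraries of 1181-Grpr. In the control lines it was at most at 0.0915 CPM outside 1 library. That library, labelled 1014-Ctrl mock replicate 2, held Grpr at 48.1 CPM and the Y-linked gene Ddx3y at 64.2 CPM. The library labelled 1181-Grpr GRP+RC replicate 2 held no count of either gene. Both go against their labels and were kept, and values that change without them are given beside the result. Xist, the RNA of the inactive X chromosome, was at 193 to 248 CPM in the other 11 libraries of 1181-Grpr, labelled male, and at most at 0.641 CPM in 1181-Ctrl. Cdh1 lay at 9.74 to 26.9 CPM in 1181-Ctrl and those 11 libraries, although the labels carry the deleted allele there. It lay at no more than 0.119 CPM in 1057 and 1064. The library labelled 1014-Ctrl mock replicate 2 held Cdh1 at 22.7 CPM and Xist at 172 CPM. The other 11 libraries of 1014-Ctrl held no Ddx3y, Cdh1 at 1.87 to 5.13 CPM and Xist at 583 to 1051 CPM. The library labelled 1181-Grpr GRP+RC replicate 2 held Xist at 794 CPM, within that range. In these genes each of the 2 resembled the line of the other, and whether they were exchanged was not tested. The mock group of 1014-Ctrl thus includes 1 library with Grpr and Ddx3y. All 8 melanocyte markers exceeded 1 TPM, a level per transcript length, in every line. Of 8 immune cell markers Cd68 and Lyz2 exceeded it, and the other 6, Ptprc among them, reached at most 0.24 TPM in any library.

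The known binding sequence of NF-κB, the κB motif, was looked up in the promoters of the genes, to show what the sequence upstream of them holds. RefSeq promoters (assembly GRCm38.p6, 250 bases before to 50 bases after the transcript start) were at hand for 7 of the 10 genes, 10 promoters in all, and not for Nfkbiz, Relb and Nfkb1. The κB consensus was found on either strand in 7 of these 10 promoters, against 4.51% of all 32851 promoters of the same length. They belong to 5 genes, Nfkbia, Tnfaip3, Nfkb2, Bcl3 and Ier3, and no match was found for Birc3 and Icam1. The AP-1 motif TGANTCA was found in 2 of the 10 promoters, of Tnfaip3 and Nfkb2, against 7.81% of all promoters. The CRE motif TGACGTCA was found in none of them, against 1.79%. A match is a description of letters, and a missing match says only that these letters are not in this window. In the sequences of 4 of the 5 genes with a κB match, written from 5′ to 3′ on the strand of the gene, capitals mark κB matches and, in Tnfaip3, also the AP-1 match.
Nfkbia, minus strand, chr12:55492598-55492897: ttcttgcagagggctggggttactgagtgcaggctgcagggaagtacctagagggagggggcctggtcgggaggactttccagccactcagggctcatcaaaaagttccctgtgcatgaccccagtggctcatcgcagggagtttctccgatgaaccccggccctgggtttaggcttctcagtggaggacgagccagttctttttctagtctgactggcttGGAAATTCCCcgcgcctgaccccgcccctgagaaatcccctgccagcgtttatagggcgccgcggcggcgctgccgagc
Tnfaip3 promoter 1, minus strand, chr10:19015361-19015660: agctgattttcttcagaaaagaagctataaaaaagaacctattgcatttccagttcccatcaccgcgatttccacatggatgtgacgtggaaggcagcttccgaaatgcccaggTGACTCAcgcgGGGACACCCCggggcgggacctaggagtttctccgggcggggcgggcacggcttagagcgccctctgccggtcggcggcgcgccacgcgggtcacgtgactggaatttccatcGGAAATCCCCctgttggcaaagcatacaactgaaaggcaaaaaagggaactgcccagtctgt
Nfkb2 promoter 1, plus strand, chr19:46304487-46304786: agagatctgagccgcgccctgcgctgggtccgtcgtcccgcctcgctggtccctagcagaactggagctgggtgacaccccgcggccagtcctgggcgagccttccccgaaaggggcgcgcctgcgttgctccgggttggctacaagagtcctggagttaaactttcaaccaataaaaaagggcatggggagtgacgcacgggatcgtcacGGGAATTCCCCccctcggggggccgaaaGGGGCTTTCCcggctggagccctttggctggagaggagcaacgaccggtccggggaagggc
Ier3, plus strand, chr17:35821463-35821762: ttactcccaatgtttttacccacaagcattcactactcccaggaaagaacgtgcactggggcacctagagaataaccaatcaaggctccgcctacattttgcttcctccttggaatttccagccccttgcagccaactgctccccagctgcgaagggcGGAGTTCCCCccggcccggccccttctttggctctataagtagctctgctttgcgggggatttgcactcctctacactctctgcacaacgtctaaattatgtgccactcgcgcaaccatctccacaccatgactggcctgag
The κB match of Nfkbia lay from -29 to -20 relative to the transcript start. Tnfaip3 held κB matches from -125 to -116 and from -12 to -3, with the AP-1 match from -136 to -130 beside the first of them. Nfkb2 held overlapping κB matches from -39 to -29 and another from -11 to -2, and its further promoters 2 and 3 overlap each other and share a κB match. The κB match of Ier3 lay from -92 to -83 and that of Bcl3 from 3 to 12, just inside the transcript.

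GRP for 4 h raised most of these genes in 3 of the 4 lines with Grpr. A gene passed at a Benjamini-Hochberg adjusted p under 0.05 over all genes tested in edgeR's quasi-likelihood test, 1 fit per line, and was called if its absolute log2 fold change also exceeded 1. In 1014-Grpr 9 of the 10 genes passed, all higher, against 16.3% of all genes tested, and 5 were called as higher against 3.16% (7 passed and 3 were called in a fit of all 72 libraries, where Birc3 and Bcl3 no longer passed). In bulk RNA, a lower level in every cell and fewer cells that express a gene cannot be told apart. In 1057 8 of 8 tested genes passed, 6 higher and 2 lower, but 25.7% of all genes passed as higher there and 26.9% as lower, and Nfkbiz alone was called, as higher, against 4.96%. In the fit of all 72 libraries 4 of the 10 passed in 1057, against 13.2% of all genes, namely Nfkbiz, Nfkb2 and Ier3 as higher and Nfkbia as lower. In 1064 5 of 9 tested genes passed, all higher, against 3.62%, and 2 were called as higher against 1.52%. In the fit of all 72 libraries the same genes passed in 1064, and so did Nfkbia, as higher. In 1181-Grpr none of the 9 tested genes passed, nor did any of all 14506 genes tested, of which 45 had an unadjusted p under 0.05 in edgeR and 38 in DESeq2, with none of the 9 among the 45 (110 in edgeR without the 2 libraries that go against their labels). The replicate numbers paired the GRP and mock libraries there (r of 0.669 to 0.846), and with the number as a block and without the 2 libraries 67 genes of all passed, none of them among the 10. The filter on low counts left out Icam1 in 1057, 1064 and 1181-Grpr and Bcl3 in 1057. The median log2 fold change of the tested genes was 0.93 in 1014-Grpr, 0.79 in 1064, 0.34 in 1057 and 0.09 in 1181-Grpr, beside medians between -0.02 and 0.00 over all genes. In 1064 the 5 results depend on single replicates. Without replicate 1 or without replicate 2 none of them passed, nor did any gene of all those tested, of which 2136 and 1935 had an unadjusted p under 0.05, and without replicate 3 there were 3 that passed. The replicate numbers paired the libraries of 1064, and with the number as a block 7 of the 9 passed there, against 43.5% of all genes.

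**Figure D1:**
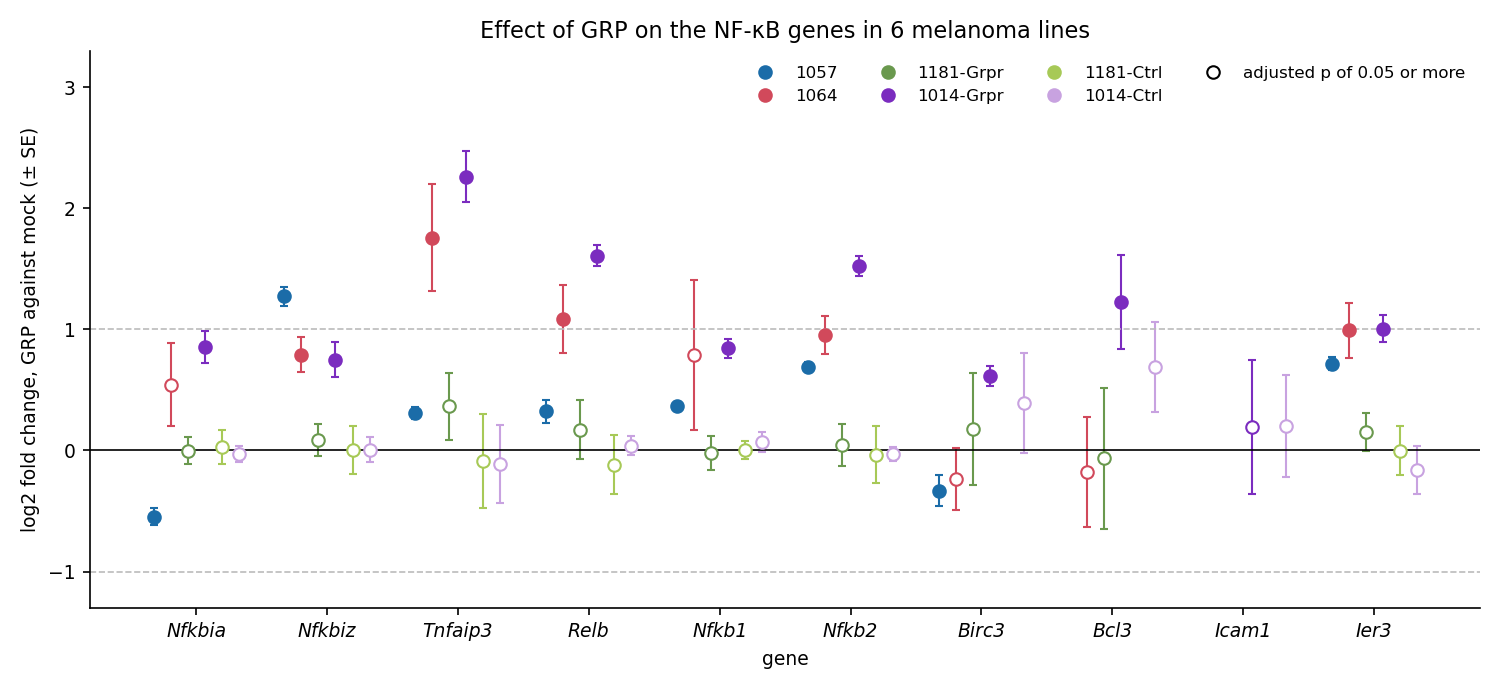
Log2 fold change of GRP against mock for the 10 genes in the 6 lines, from edgeR, with bars of 1 standard error, filled points for an adjusted p under 0.05 and dashed lines at the threshold of an absolute log2 fold change of 1. Tnfaip3, Relb and Nfkb2 lie highest in 1014-Grpr (2.26, 1.61 and 1.52), Nfkbia and Birc3 lie below 0 in 1057 (-0.55 and -0.33), and no point of 1181-Grpr or of the control lines is filled.

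Tnfaip3 (ENSMUSG00000019850, chr10:19000910-19015657) rose in 1057, 1064 and 1014-Grpr. In 1014-Grpr it stood at 2.73, 2.49 and 2.42 CPM in the mock libraries and at 9.02, 15 and 12.6 CPM with GRP, with library sizes normalized by TMM within the line. All 3 GRP libraries thus lay far above all mock libraries, a 4.79-fold change (log2 2.26, standard error 0.211, adjusted p = 1.26e-05 from edgeR). In 1064 the mock libraries held 2.62, 1.89 and 2.46 CPM and the GRP libraries 11.8, 7.20 and 4.63 CPM, again with no overlap but with replicate 1 highest and replicate 3 lowest (log2 1.76, standard error 0.440, adjusted p = 0.0432, lost without replicate 1 at 0.265 and without replicate 2 at 0.32). In 1057 Tnfaip3 was already at 20.3, 19.8 and 18.5 CPM without ligand. It reached 25.7, 23.8 and 23.0 CPM with GRP, a rise of 0.31 on the log2 scale (adjusted p = 5.86e-05) that was small but larger than the spread of the replicates. In 1181-Grpr the mock libraries held 2.0, 3.55 and 4.07 CPM and the GRP libraries 3.99, 4.23 and 4.13 CPM, which overlap, and the log2 fold change of 0.36 ± 0.278 (SE) did not pass.

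Nfkbiz (ENSMUSG00000035356, chr16:55811375-55838899), whose product acts on promoters inside the nucleus, was the only one of the 10 to be called in 1057. Its mock libraries there held 5.90, 5.36 and 5.10 CPM and its GRP libraries 14.5, 12.5 and 12.6 CPM, a 2.42-fold change without overlap (log2 1.27, standard error 0.0780, adjusted p = 1.32e-10). In 1064 it went from 16, 15 and 18.7 CPM to 23.9, 32.9 and 29.1 CPM (log2 0.79, adjusted p = 0.0136, above 0.05 without any 1 replicate, at 0.0673 to 0.184). In 1014-Grpr it went from 10.1, 11.1 and 11.9 CPM to 13.8, 22.4 and 19.4 CPM (log2 0.75, adjusted p = 0.00238). GRP and mock libraries were thus apart in all 3 lines. In 1181-Grpr they overlapped, at 9.31 to 10.7 CPM with mock and 9.87 to 12.3 CPM with GRP.

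Nfkbia (ENSMUSG00000021025, chr12:55489410-55492647), the classical inhibitor and the usual reporter of the feedback, moved in opposite directions. In 1014-Grpr it rose from 32.6, 36.6 and 28.8 CPM to 48.6, 69.3 and 59.5 CPM (log2 0.85, standard error 0.132, adjusted p = 5.09e-04). In 1057 it fell from 30.5, 35.1 and 34.6 CPM to 21, 24.8 and 22.6 CPM (log2 -0.55, standard error 0.0693, adjusted p = 2.43e-06), which is a loss of 31.5%, and passed in each of the 7 alternatives. No GRP library overlapped a mock library in either line. In 1064 the mock libraries held 28.5, 30.1 and 18.7 CPM and the GRP libraries 59.2, 32.1 and 21.3 CPM, so that replicate 1 carried most of a log2 fold change of 0.54. It did not pass (adjusted p = 0.406), but did with the replicate number as a block (0.0496) and in the fit of all 72 libraries (0.0370). In 1181-Grpr the level was 31.4, 32.8 and 25.4 CPM with mock and 29.9, 30.6 and 29.0 CPM with GRP, with a log2 fold change of -0.00.

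Bcl3 (ENSMUSG00000053175, chr7:19808462-19822770), an atypical inhibitor that can also co-activate transcription with p50 or p52, was near the floor in 2 lines and at 3 counts or fewer in 11 of the 72 libraries. In 1014-Grpr it stood at 1.04, 1.97 and 0.627 CPM with mock and 2.90, 3.71 and 2.19 CPM with GRP. The groups did not overlap, and it was called (log2 1.23, standard error 0.386, adjusted p = 0.0314), though not without replicate 1 (adjusted p = 0.212). In 1064 its libraries overlapped and the log2 fold change was -0.18 (adjusted p = 0.875). Of its exon bases, 6.5% are overlapped by Gm16175 on the other strand.

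The 3 subunit genes rose together in 1057 and 1014-Grpr. Relb (ENSMUSG00000002983, chr7:19606217-19629438) went from 23.0, 20.6 and 23.6 CPM to 62.3, 77.6 and 65.0 CPM in 1014-Grpr, a 3.05-fold change (log2 1.61, standard error 0.0891, adjusted p = 5.04e-07). In 1064 it went from 12.8, 9.34 and 14.4 CPM to 35.7, 20.6 and 21.2 CPM (log2 1.08, adjusted p = 0.047, above 0.05 without any 1 replicate). In 1057 it went from 7.51, 6.85 and 7.49 CPM to 9.78, 9.63 and 7.90 CPM (log2 0.32, adjusted p = 0.00956, but 0.0614 without replicate 1 and 0.0885 without replicate 2). Replicate 3 of the GRP libraries of 1057 was thus close to its mock libraries, while in 1064 and 1014-Grpr every GRP library was well above mock. In 1181-Grpr the groups overlapped, at 13.2, 20.7 and 19.7 CPM with mock and 16.8, 20.9 and 22.6 CPM with GRP.

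Nfkb2 (ENSMUSG00000025225, chr19:46304320-46312385), the gene of the non-canonical subunit, had GRP and mock libraries far apart in the same 3 lines. In 1014-Grpr it went from 42.9, 40.02 and 47.7 CPM to 120.1, 129 and 126 CPM, a 2.88-fold change (log2 1.52, standard error 0.0825, adjusted p = 4.2e-07). In 1064 the mock libraries held 65.9, 52.2 and 74.3 CPM and the GRP libraries 142, 113 and 118 CPM (log2 0.95, adjusted p = 0.00994, lost without replicate 1 or 2 at 0.135 and 0.165). In 1057 the values were 39.5, 39.5 and 40.1 CPM with mock and 61.9, 65.8 and 64.5 CPM with GRP (log2 0.69, standard error 0.0380, adjusted p = 2.86e-11). In 1181-Grpr they overlapped, at 40.3 to 54.6 CPM and 44.1 to 56.1 CPM. Other genes overlap 18.1% of the exon bases of Nfkb2 on the other strand, and the libraries were strand-specific.

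Nfkb1 (ENSMUSG00000028163, chr3:135584655-135691547) rose in 1014-Grpr from 85.6, 85.3 and 84.5 CPM to 136, 171 and 151 CPM (log2 0.84, adjusted p = 9.78e-06). In 1057 it rose from 60.5, 60.0 and 58.0 CPM to 78.9, 75.1 and 76.3 CPM (log2 0.37, adjusted p = 7.59e-08). In 1064 replicate 1 stood apart whatever the treatment, at 72.8 to 162 CPM against 31.7 to 38.5 CPM in replicates 2 and 3. GRP there gave 162, 38.5 and 38.3 CPM against 73.8, 32.0 and 33.0 CPM with mock, higher in each of the 3 replicates, and the log2 fold change of 0.78 did not pass (adjusted p = 0.519). With the replicate number as a block it was 0.60 and passed (adjusted p = 0.0211).

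**Figure D2:**
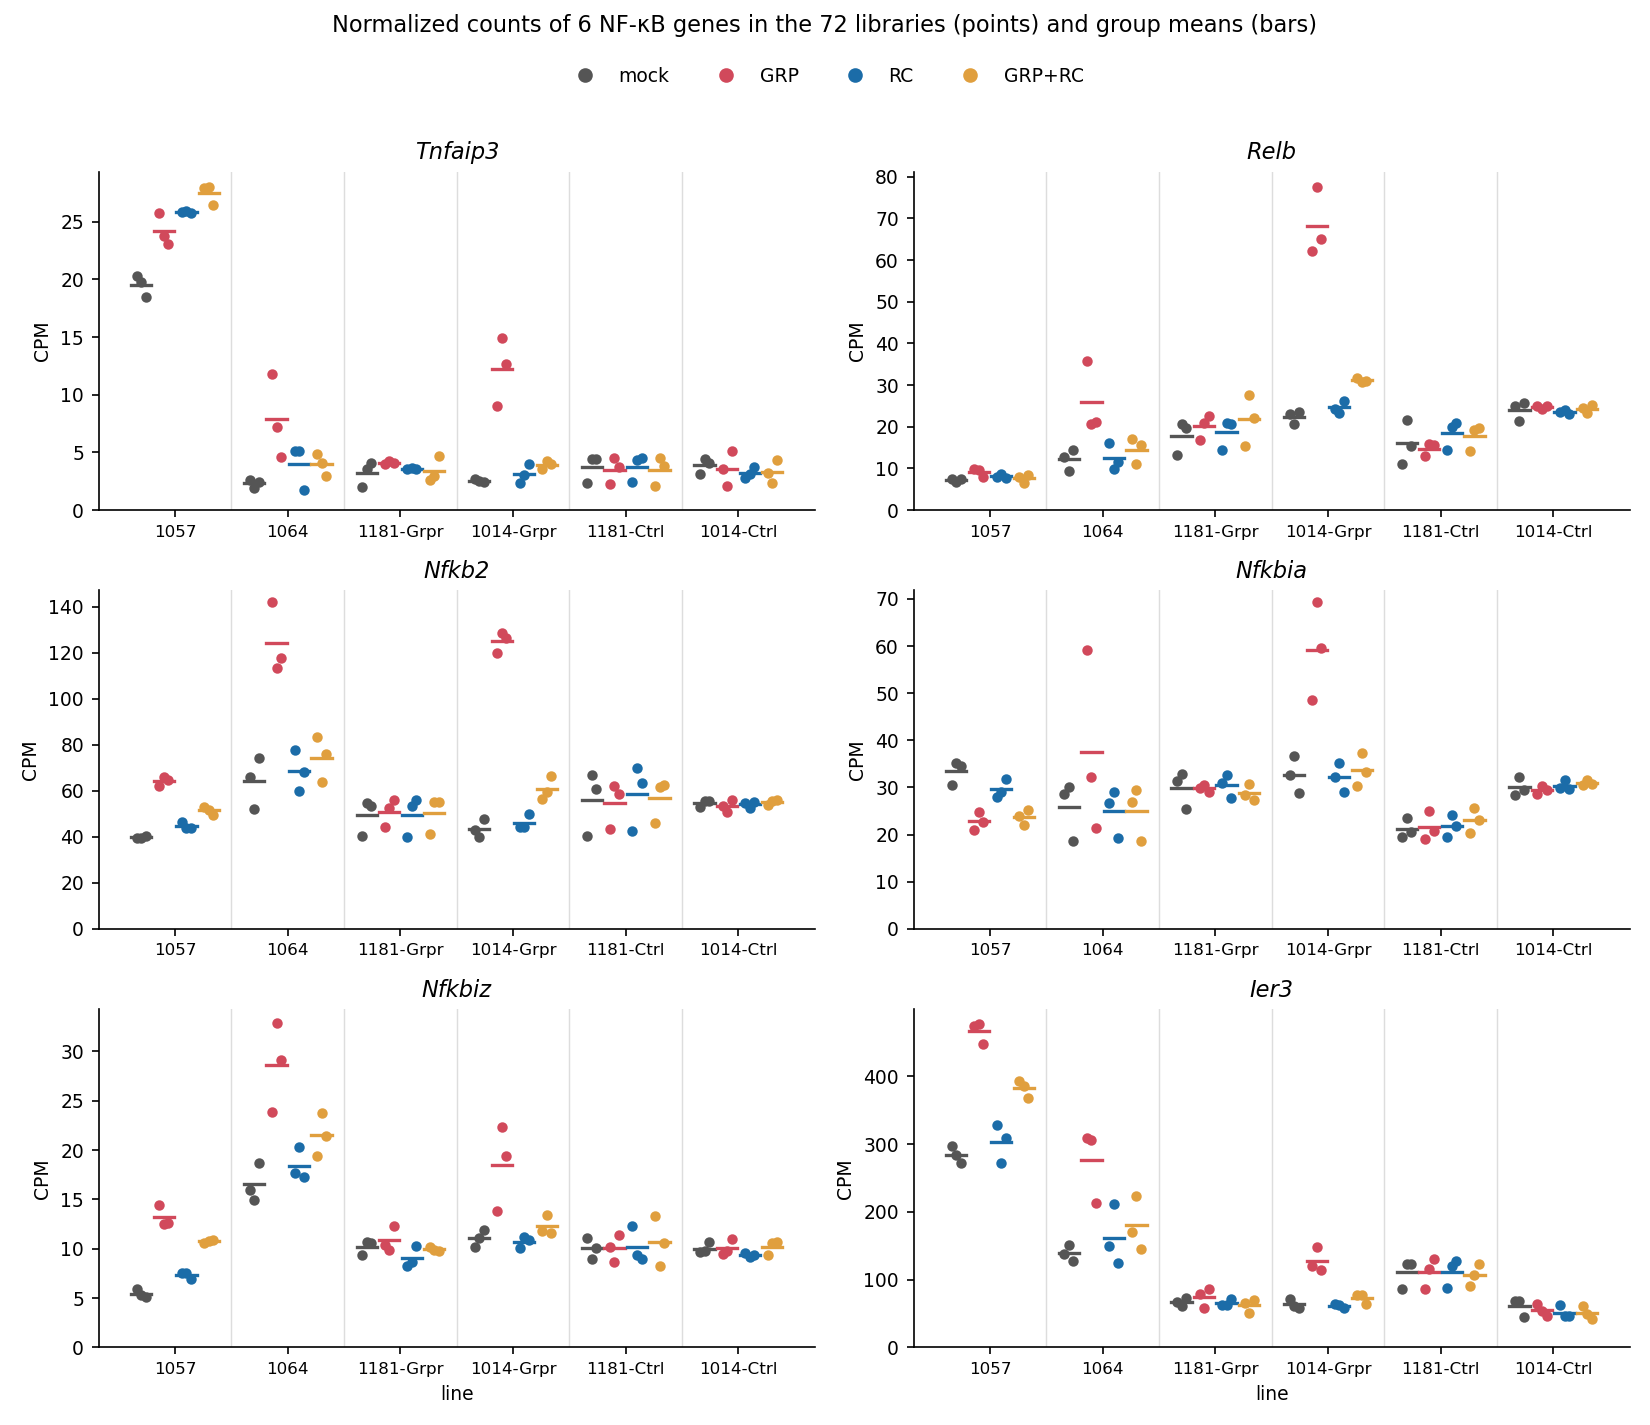
CPM of Tnfaip3, Relb, Nfkb2, Nfkbia, Nfkbiz and Ier3 in the 72 libraries by line and treatment, with points for libraries and bars for the mean of 3 replicates. GRP libraries stand above mock libraries in 1014-Grpr for all 6 genes (for Relb 62.3 to 77.6 CPM against 20.6 to 23.6 CPM), those of Nfkbia in 1057 stand below (21 to 24.8 CPM against 30.5 to 35.1 CPM), and 1181-Grpr and the control lines overlap.

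Ier3 (ENSMUSG00000003541, chr17:35821684-35822923) was the most counted of the targets and rose in 3 lines. In 1057 it went from 297, 283 and 272 CPM to 474, 478 and 448 CPM (log2 0.72, standard error 0.0524, adjusted p = 1.66e-09). In 1014-Grpr it went from 71.2, 61.1 and 57.8 CPM to 121, 148 and 114 CPM (log2 1.01, adjusted p = 4.48e-05). In 1064 the mock libraries held 138, 151 and 128 CPM and the GRP libraries 309, 307 and 212 CPM (log2 0.99, adjusted p = 0.0303, lost without replicate 1 or 2 at 0.273 and 0.172). The groups were apart in these lines and overlapped in 1181-Grpr, where mock gave 67.1, 61.5 and 72.4 CPM and GRP 79.2, 58.5 and 85.7 CPM.

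Birc3 (ENSMUSG00000032000, chr9:7848699-7873186) changed less and not in 1 direction. In 1014-Grpr it rose from 12, 10.7 and 11 CPM to 16.9, 17.7 and 16.9 CPM (log2 0.61, standard error 0.0813, adjusted p = 1.79e-04). In 1057 it went from 4.21, 4.61 and 4.68 CPM to 4.11, 3.25 and 3.41 CPM (log2 -0.33, adjusted p = 0.0345, and 0.0751 in DESeq2, 0.285 without replicate 2 and 0.178 without replicate 3). In 1064 its groups overlapped, with a log2 fold change of -0.23 (adjusted p = 0.671). Icam1 (ENSMUSG00000037405, chr9:21015985-21028817) was barely detected, at 3 counts or fewer in 36 of 72 libraries and never above 24 counts. At this depth a small response of Icam1 could not be seen, while a large rise could. Icam1 was tested in 1014-Grpr alone of the lines with Grpr, where mock gave 0.380, 0.493 and 0.582 CPM and GRP 0.449, 0.647 and 0.548 CPM (log2 0.20, adjusted p = 0.827).

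In the control lines none of the 10 genes passed after GRP. No gene of all 14188 tested passed in 1181-Ctrl (37 at an unadjusted p under 0.05 in edgeR, 32 in DESeq2) and none of 13755 in 1014-Ctrl (562 in edgeR, 595 in DESeq2, and 200 in edgeR without the 2 libraries that go against their labels). In the fit of all 72 libraries, in which both of these stayed, 401 genes of all passed in 1014-Ctrl, 392 of them called, with none of the 10 among them. Tnfaip3, for example, stood at 3.12, 4.43 and 4.10 CPM with mock and 3.55, 2.07 and 5.11 CPM with GRP in 1014-Ctrl, and Relb at 24.9, 21.4 and 25.8 CPM and at 24.9, 24.2 and 25 CPM. The difference of the GRP effect between 1014-Grpr and 1014-Ctrl, tested in a fit of their 24 libraries, passed for 7 of the 10 genes in the positive direction, against 9.08% of all genes, and was called for 4 against 3.01% (without the 2 libraries 8 passed and 4 were called). The differences called were 2.37 for Tnfaip3 (adjusted p = 4.64e-04), 1.57 for Relb (7.36e-08), 1.55 for Nfkb2 (2.46e-08) and 1.17 for Ier3 (0.00245, and 0.106 without replicate 2), as log2 values. Nfkbia (0.88), Nfkb1 (0.77) and Nfkbiz (0.74) passed below the threshold of size, Nfkbia not without replicate 3 (adjusted p = 0.0594) and Nfkbiz not without replicate 2 or 3 (0.122 and 0.117). For Birc3 the difference was 0.23 (adjusted p = 0.769) and rests on the library labelled 1014-Ctrl mock replicate 2, which held 2.39 CPM where the other 11 libraries of 1014-Ctrl held 9.67 to 12.7 CPM. Without the 2 libraries that go against their labels it was 0.67 and passed (adjusted p = 0.00126). The difference between 1181-Grpr and 1181-Ctrl passed for none of the 10 genes or of all 15041 tested, with 58 genes at an unadjusted p under 0.05 in edgeR and 55 in DESeq2. Grpr itself was lower in 1181-Grpr than in the other lines with the receptor, although higher there with GRP than with mock, as given above. Its part in the response was not tested.

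Over the 4 lines with Grpr, fitted together on 48 libraries, the mean effect of GRP passed for 6 of the 10 genes, all higher, against 15.1% of all genes. It was called for Tnfaip3 (log2 1.17, standard error 0.144, adjusted p = 7.69e-08), against 1.98% called as higher. The others were Nfkb2 (0.80), Relb (0.79), Nfkbiz (0.72), Ier3 (0.71) and Nfkb1 (0.49, adjusted p = 0.0273, lost without replicate 2 or 3 at 0.115 and 0.134). The mean effect on Nfkbia was 0.21 (adjusted p = 0.135) and that on Birc3 0.06 (0.846). In an exact permutation of GRP and mock libraries within lines (two-sided, 160000 arrangements, smallest possible p = 1.25e-05, not adjusted), p was 2.5e-05 for Tnfaip3, 6.25e-05 for Ier3, 7.5e-05 for Nfkbiz, 8.75e-05 for Nfkb2 and 2e-04 for Relb. Of the 12 GRP libraries, 11 lay above every mock library of their line for Tnfaip3, Relb and Ier3, 10 for Nfkbiz and Nfkb2, and 5 for Nfkbia. The effect of GRP differed among the 4 lines for 6 of the 10 genes (edgeR's F test with 3 degrees of freedom, against 7.48% of all genes), and for 7 without the 2 libraries, against 10.1%. These were Nfkb2 (adjusted p = 1.97e-05), Nfkbiz (4.21e-04), Tnfaip3 (9.31e-04), Relb (0.00214), Nfkbia (0.00575) and Ier3 (0.031). Nfkb2 and Nfkbiz passed without any 1 replicate number, while without replicate 2 they were the only ones left. Nfkbia and Ier3 did not pass without replicate 1 either (adjusted p = 0.0679 and 0.367).

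Likeness of pattern was described over the 24 means of line and treatment, each centred on its line. The 45 pairs among the 10 genes had a Pearson r of 0.0086 (Nfkbiz and Birc3) to 0.980 (Nfkb1 and Nfkb2), with a median of 0.639. Nfkbia had an r of 0.164 (Nfkbiz) to 0.772 (Relb) with the other genes, with a median of 0.502. These r describe 24 group means that share libraries and depth within each group. The means include the 2 libraries that go against their labels, and r without them was not computed. By the same measure, and among the 10517 genes of at least 5 CPM on average, the genes most like Tnfaip3 were Msrb3 (0.981), Abl2 (0.980) and P3h2 (0.971). Those most like Nfkbiz were Slc23a2 (0.973), Gab2 (0.973) and Nr4a2 (0.972), and those most like Nfkbia were Rnf149 (0.946), Asxl3 (0.939) and Plekho2 (0.932). The low counts of Icam1 gave lower values, with Zfp959 (0.732) first.

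RC was added to ask how much of the response depends on GRPR. In 1014-Grpr GRP+RC lowered 8 of the 10 genes against GRP alone (against 8.06% of all genes), and 3 were called as lower against 1.59% (6 passed and 3 were called in the fit of all 72 libraries, where Nfkb1 and Birc3 no longer passed). Tnfaip3 stood at 3.52, 4.26 and 3.99 CPM with GRP+RC, below every GRP library (log2 -1.64, standard error 0.204, adjusted p = 3.61e-04) but also above every mock library. Relb was at 31.8, 30.8 and 31.0 CPM (log2 -1.13 against GRP, adjusted p = 2.6e-05) and Nfkb2 at 56.4, 59.6 and 66.6 CPM (-1.04, adjusted p = 2.6e-05). Nfkbia returned to 30.3, 37.4 and 33.3 CPM, overlapping mock (-0.81 against GRP, adjusted p = 0.00193). Nfkbiz (-0.60), Nfkb1 (-0.64), Birc3 (-0.47) and Ier3 (-0.81) also fell, Nfkbiz not without replicate 2 or 3 (adjusted p = 0.172 and 0.195) and Birc3 not without replicate 1 or 3 (0.0634 and 0.0536). Bcl3 had a log2 fold change of -0.78 (adjusted p = 0.224, and 0.00604 with the replicate number as a block, which paired the libraries of 1014-Grpr).

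Against mock, GRP+RC in 1014-Grpr left 2 of the 10 genes higher, against 0.765% of all genes, and none called, against 0.189%. They were Nfkb2 (log2 0.49, standard error 0.0822, adjusted p = 0.0187) and Relb (0.48, standard error 0.0896, adjusted p = 0.029). Both had GRP+RC libraries above all mock libraries, and neither passed with any 1 replicate left out or in the fit of all 72 libraries. With the replicate number as a block Tnfaip3 (0.61, adjusted p = 0.0228) and Nfkb1 (0.20, adjusted p = 0.0102) passed as well, but 17.3% of all genes passed in that setting. RC alone changed none of the 10 genes there, and no gene of all tested passed, with 161 at an unadjusted p under 0.05. The comparisons with mock share its libraries, so their fold changes are set side by side only as values. The log2 fold change with GRP+RC was between 4.93% (Nfkbia) and 36.4% (Bcl3) of that with GRP, over the 9 genes that passed with GRP.

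**Figure D3:**
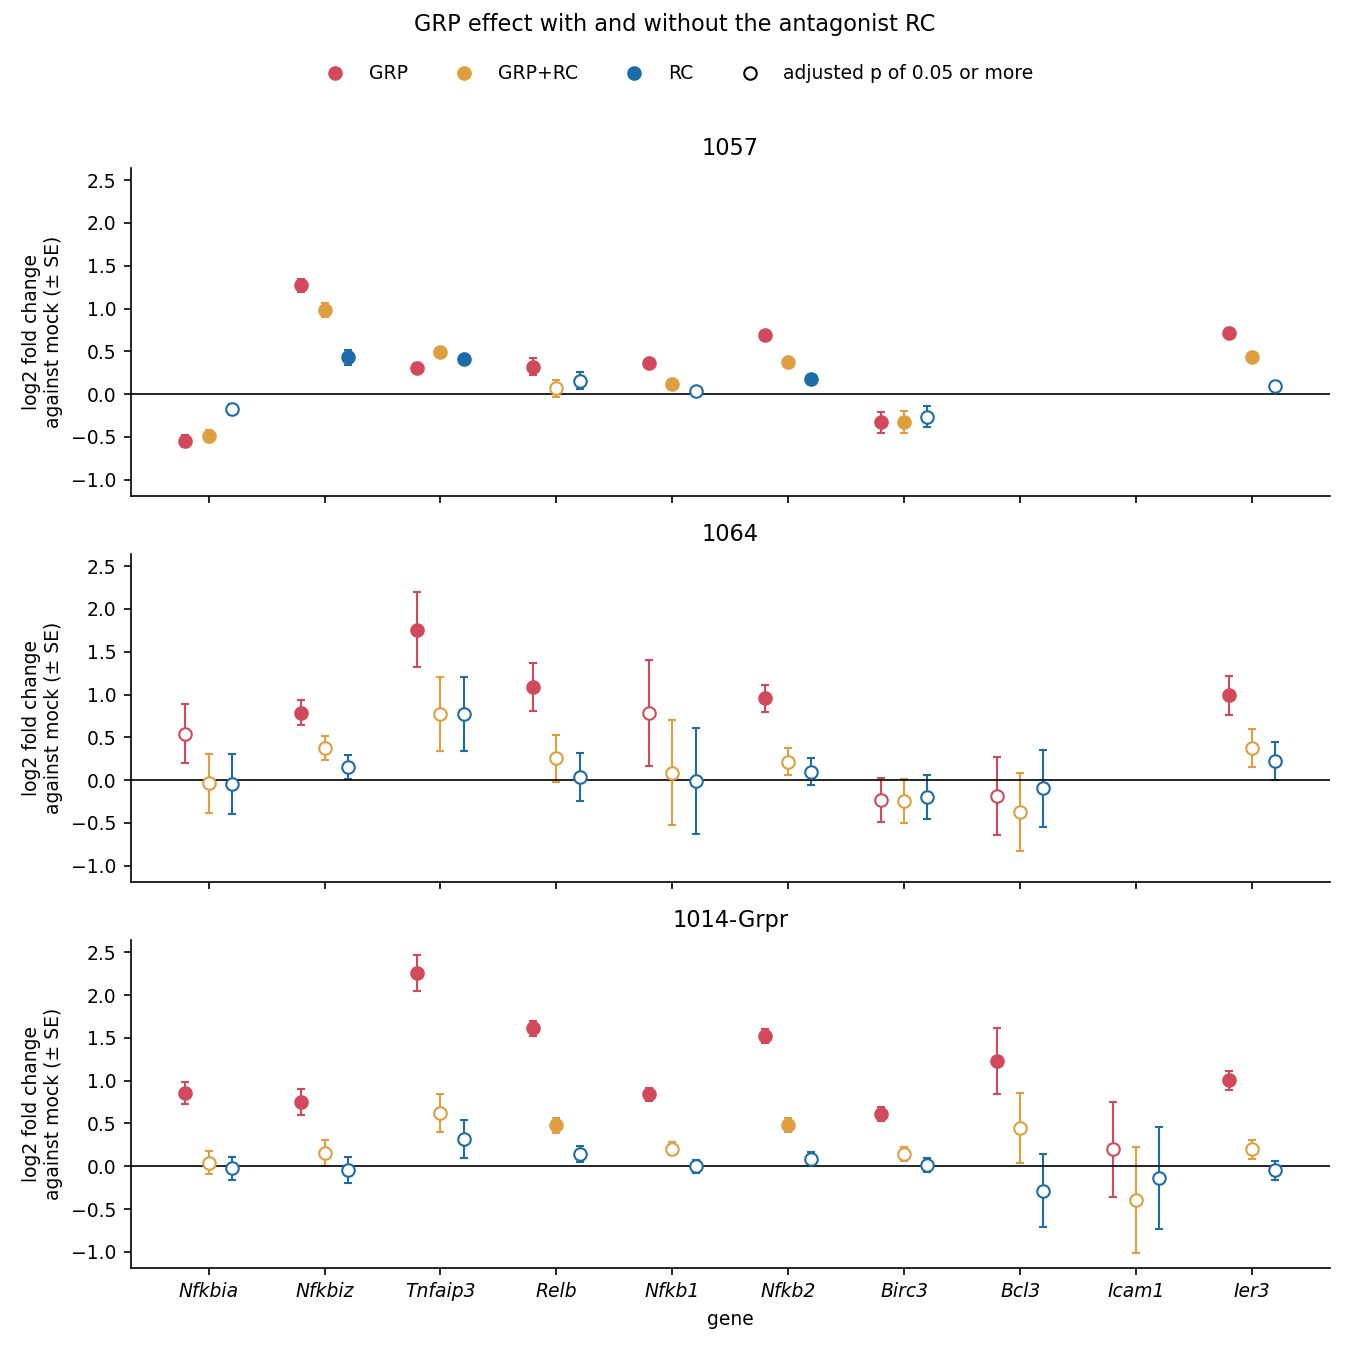
Log2 fold change against mock of GRP, GRP+RC and RC for the 10 genes in 1057, 1064 and 1014-Grpr, with bars of 1 standard error. In 1014-Grpr the values with GRP+RC lie between 0 and those with GRP for the 9 genes that passed with GRP, from 0.04 for Nfkbia (0.85 with GRP) to 0.62 for Tnfaip3 (2.26 with GRP), and in 1057 those of Nfkbia (-0.49 against -0.55), Nfkbiz (0.98 against 1.27) and Tnfaip3 (0.49 against 0.31) lie near or beyond those of GRP.

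In 1057 the log2 fold change with GRP+RC was between 21.5% (Relb) and 160.4% (Tnfaip3) of that with GRP, over the 8 tested genes, and no test compared these shares with those of 1014-Grpr. GRP+RC against mock passed for 7 of the 8 genes, against 44.3% of all genes, and none was called against 3.47% (without replicate 1, Nfkbiz was called). In the fit of all 72 libraries Nfkbiz alone passed, against 5.54% of all genes. Nfkbiz stood at 10.6, 10.8 and 10.9 CPM, above all mock and below all GRP libraries (log2 0.98 against mock, and -0.29 against GRP with an adjusted p of 0.00516, or 0.0875 without replicate 1). Nfkb2 stood at 53.1, 51.6 and 49.7 CPM, likewise between the groups (0.37 against mock and -0.32 against GRP, adjusted p = 4.63e-06). Ier3 was at 394, 386 and 368 CPM (0.43 against mock and -0.29 against GRP, adjusted p = 4.43e-04). Nfkb1 was also lower than with GRP (-0.24, adjusted p = 4.36e-05), whereas Relb, at 8.01, 6.57 and 8.38 CPM, differed neither from mock (0.07, adjusted p = 0.616) nor from GRP (-0.25, adjusted p = 0.0676) beyond the test's threshold. Nfkbia stayed at 23.9, 22.0 and 25.3 CPM, below every mock library (-0.49, adjusted p = 1.19e-05) and overlapping GRP (0.05, adjusted p = 0.659). In all, 5 of the 8 genes differed between GRP+RC and GRP, against 24.7% of all genes, and none was called, against 1.02%. In the fit of all 72 libraries none of the 10 passed, against 0.211%.

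Tnfaip3 in 1057 went the other way. RC alone raised it to 25.9, 25.9 and 25.8 CPM from 20.3, 19.8 and 18.5 CPM with mock (log2 0.41, standard error 0.0511, adjusted p = 1.25e-05). GRP+RC gave 28.0, 28.0 and 26.4 CPM, above every GRP library (0.19 against GRP, adjusted p = 0.00991, and 0.135 without replicate 2). RC alone also raised Nfkbiz, to 7.51, 7.58 and 6.88 CPM (0.43, adjusted p = 0.00109), and Nfkb2, to 46.5, 43.9 and 44.0 CPM (0.18, adjusted p = 0.00291). In all, RC alone raised 3 of the 8 genes in 1057, against 13% of all genes, and none was called, against 0.888%. In the fit of all 72 libraries none of the 10 passed after RC, against 0.247%. The RC libraries of these 3 genes lay above all mock libraries. How many of all genes do so was not counted.

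In 1064 the log2 fold change with GRP+RC was between 22.4% (Nfkb2) and 47.9% (Nfkbiz) of that with GRP for the 5 genes that had risen, and the libraries overlapped mock or GRP for some of them. Tnfaip3 stood at 4.86, 4.11 and 2.96 CPM, Relb at 17.0, 11 and 15.7 CPM and Nfkb2 at 83.4, 64.0 and 75.9 CPM. The highest of the Tnfaip3 values exceeded the lowest with GRP, and the lowest of Relb and Nfkb2 fell within mock. None of the 9 tested genes passed against GRP, where 0.029% of all genes did and 0.0145% were called, and 5 of the 9 had an unadjusted p under 0.05. With the replicate number as a block 5 passed as lower than with GRP, against 21.2% of all genes that passed in either direction. They were Nfkb2 (log2 -0.74, adjusted p = 7.79e-04), Ier3 (-0.62, 0.00353), Relb (-0.82, 0.00399), Nfkbiz (-0.41, 0.0186) and Tnfaip3 (-0.95, 0.024). In the fit of all 72 libraries 2 passed, Nfkb2 and Relb. GRP+RC and RC alone passed for no gene of all against mock in 1064, with 352 and 129 genes at an unadjusted p under 0.05, 1 of them among the 9 with GRP+RC and none with RC. Tnfaip3 with RC alone spread widely there, at 5.09, 5.12 and 1.74 CPM.

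Resting levels, in mock-treated cells, were compared between lines. The mock libraries of 1014-Ctrl include replicate 2, which goes against its label, so the means, SDs and overlaps of that line rest partly on it. Per length, Ier3 was the most abundant of the 10 genes in every line, from 844 TPM ± 22.3 (SD, n = 3) in 1057 to 189 TPM ± 39.8 (SD, n = 3) in 1014-Ctrl. Its levels in 1057 lay apart from those in 1064, next in order at 425 TPM ± 47.9 (SD, n = 3), and those of the lowest 3 lines overlapped. Tnfaip3 was at 9.07 TPM ± 0.323 (SD, n = 3) in 1057, apart from all other lines, which lay between 1.89 TPM ± 0.331 in 1014-Ctrl and 1.11 TPM ± 0.210 in 1064 with each neighbour overlapping. Nfkbiz ran from 11.4 TPM ± 0.981 in 1064 to 3.65 TPM ± 0.207 in 1057, both apart from the 4 lines between them, which overlapped. Relb was highest in the 1014 lines (21.7 TPM ± 2.33 in 1014-Ctrl and 20.7 ± 1.80 in 1014-Grpr, overlapping) and lowest in 1057 (6.30 ± 0.311).

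Nfkb2 had 67.4 TPM ± 10.7 in 1064 at its highest and 40.5 TPM ± 1.02 in 1057, apart from the rest, at its lowest. Nfkb1 ran from 25.4 TPM ± 0.437 in 1014-Grpr to 13.5 TPM ± 7.57 in 1064, where the SD reflects replicate 1. Nfkbia ran from 72.8 TPM ± 7.51 in 1014-Grpr to 45.6 TPM ± 3.83 in 1181-Ctrl, and no neighbours in that order were apart. Bcl3 lay between 1.75 TPM ± 0.978 in 1014-Grpr and 0.123 TPM ± 0.112 in 1057, and Icam1 at 0.400 TPM ± 0.0900 in 1014-Grpr and less elsewhere, listed at 0 in all mock libraries of 1064. Birc3 ran from 8.04 TPM ± 0.419 in 1014-Grpr to 0 in 1181-Ctrl.

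**Figure D4:**
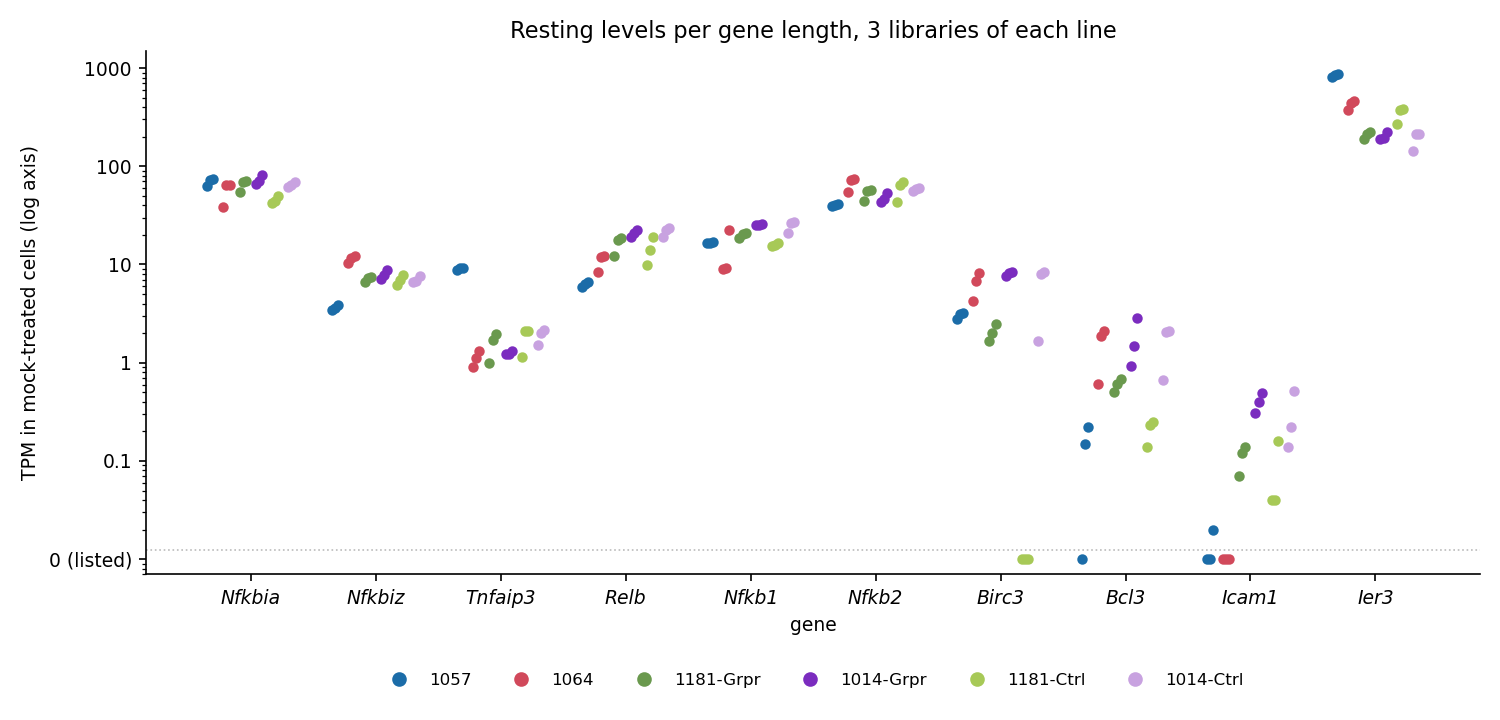
TPM of the 10 genes in the 3 mock libraries of each line, on a log axis with libraries listed at 0 drawn at the bottom. Ier3 lies highest in every line (844 TPM on average in 1057), Tnfaip3 is higher in 1057 (9.07 TPM) than in the other lines, and the mock libraries of 1181-Ctrl are at 0 for Birc3.

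In one fit of all 72 libraries, resting 1057 and 1064 differed for 7 of the 10 genes, against 54.5% of all genes, and 5 were called against 27%. Higher in 1057 were Tnfaip3 (log2 3.05, standard error 0.343, adjusted p = 9.45e-11) and Ier3 (1.02, adjusted p = 6.93e-06). Lower were Bcl3 (-3.49, adjusted p = 3.75e-06), Nfkbiz (-1.62, adjusted p = 3.15e-14), Birc3 (-1.05, adjusted p = 0.00623, and 0.152 without replicate 1), Relb (-0.76, adjusted p = 0.00182, and 0.114 without replicate 3) and Nfkb2 (-0.71). Between resting 1014-Grpr and 1014-Ctrl none of the 10 genes passed or was called, against 4.69% and 3.43% of all genes (0.562% and 0.456% without the 2 libraries that go against their labels, of which 1 is a resting library of 1014-Ctrl). Between resting 1181-Grpr and 1181-Ctrl 3 passed, against 15.7%, and Birc3 was called as higher, against 6.85%. Birc3 had no count in any mock library of 1181-Ctrl and 4 counts in all its 12 libraries together, against 2.74 CPM ± 0.470 (SD, n = 3) in resting 1181-Grpr, which is at least 23.8-fold higher than a floor of 3 counts per library. Nfkbia was higher in resting 1181-Grpr (0.56, adjusted p = 0.0322, and 0.167 and 0.146 without replicate 1 or 2) and Ier3 lower (-0.67, adjusted p = 0.00789, and 0.182 and 0.0519 without replicate 2 or 3). These lines also differ in Xist, as given above, and the part of that difference was not tested.

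Beyond the 10 genes, 98 genes of the pathway were followed in 5 lists. These lists too were chosen with earlier results of these data known, so the counts describe them and test no pathway. After GRP, 35 of the 77 tested passed as higher and 20 as lower in 1057, 10 of 73 as higher and 3 as lower in 1064, and 35 of 74 as higher and 4 as lower in 1014-Grpr. Over all genes tested, 25.7% passed as higher and 26.9% as lower in 1057, 3.62% and 2.76% in 1064, and 16.3% and 12.7% in 1014-Grpr. None of the listed genes passed in 1181-Grpr or the control lines, nor in 1064 without replicate 1 or 2. Of 11 further subunits and inhibitors, 7 of 11 tested passed as higher and 3 as lower in 1057, 2 of 10 as higher in 1064 and 7 of 10 as higher in 1014-Grpr, with median log2 fold changes of 0.28, 0.40 and 0.60. Zc3h12a, a ribonuclease that degrades inflammatory mRNAs, was called in all 3 lines (log2 1.25 in 1057, 1.98 in 1064 and 1.02 in 1014-Grpr), and so was Tnfaip8, a TNF-induced regulator of cell survival (1.48, 1.6 and 1.6). The subunit gene Rela had a log2 fold change of 0.11 in 1057 and 0.40 in 1014-Grpr, where it passed, and 0.16 in 1064, where it did not, and Rel had 0.28 in 1057, 0.62 in 1014-Grpr and 0.24 in 1064 with the same outcome.

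Of 28 relay genes (kinases, adaptors and ubiquitin ligases), 6 of 26 tested passed as higher and 10 as lower in 1057, 1 as higher and 1 as lower in 1064, and 6 as higher and 3 as lower in 1014-Grpr, with medians of -0.02, 0.05 and 0.11. Card10, the scaffold that links receptors to BCL10 and MALT1 outside lymphocytes, fell in all 3 lines (log2 -1.14 in 1057, -1.28 in 1064 and -0.79 in 1014-Grpr), while Malt1, its partner protease, rose in 1057 (1.03) and 1064 (1.57) and had 0.17 in 1014-Grpr. Of 13 receptors, 3 of 9 tested passed as higher and 4 as lower in 1057, 1 of 8 as higher in 1064, and 4 of 8 as higher and 1 as lower in 1014-Grpr, with medians of -0.09, 0.16 and 0.50. Tnfrsf12a, the receptor of the cytokine TWEAK, was called in all 3 lines (2.85, 2.15 and 2.37). Of 9 ligands, 2 of 4 tested passed in 1057, none of 3 in 1064 and 1 of 3 in 1014-Grpr, all higher. Il33, an alarmin cytokine, was called in 1057 (1.62) and 1014-Grpr (3.24) and had 0.80 in 1064 (adjusted p = 0.639). Its counts in 1014-Grpr were low, at 7 to 12 with mock and 63 to 161 with GRP. Of 37 further targets, 17 of 27 tested passed as higher and 3 as lower in 1057, 6 of 26 as higher and 2 as lower in 1064, and 17 of 27 as higher in 1014-Grpr, with medians of 0.42, 0.35 and 0.89. Among them Plau, the urokinase gene, was called in all 3 lines (1.29, 3.78 and 2.23), from counts near the floor in 1064 and 1014-Grpr. It had 0 to 10 counts with mock and 43 to 72 with GRP in 1064, and 4 to 10 and 28 to 45 in 1014-Grpr. Lif, a cytokine of the IL-6 family, had from 48 to 68 counts with mock and from 1472 to 3943 with GRP in 1014-Grpr (5.44), and was called in 1057 (1.03) but did not pass in 1064 (1.20, adjusted p = 0.139). Tnfaip2 was called in 1057 (1.36) and 1014-Grpr (2.54) and passed in 1064 (0.90). Gadd45b was called in 1057 (1.11) and 1014-Grpr (2.07), and Sdc4 in 1064 (1.17) and 1014-Grpr (1.05). In 1057 the mean level of Malt1 was 30.2 CPM with mock, 61.6 with GRP, 55.0 with RC and 84.3 with GRP+RC. In the same order Plau had 38.3, 93.5, 87.8 and 105 CPM there, and Lif 41.3, 84.6, 78.3 and 96.0 CPM. For every other named gene called in 1057 the mean with GRP+RC lay between those of mock and GRP. Tnfrsf12a, for example, had 18.9, 136, 32.3 and 64.5 CPM. These means are given without a test. The summed level of the 8 immune markers, nearly all of it Cd68 and Lyz2, ran from 9.91 to 14.5 TPM with mock and from 16 to 27.5 TPM with GRP in 1014-Grpr, and its part in these results was not tested. The defining leukocyte marker Ptprc was at no more than 0.03 TPM in any library of that line.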

How the data were processed

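Per the labels and the study's methods, polyA RNA was sequenced as strand-specific paired reads of 100 bases and aligned with STAR to GRCm38.p5 (mm10). FastQC 0.11.5 is named for read quality. The authors deposited raw counts per gene for each library, and TPM per gene, in which the 12 columns of 1057 use a decimal comma that was read as a point. The counts were used for every test and the TPM for levels between genes. Of the gene identifiers, 99.6% were found in GENCODE M21 for GRCm38, an annotation later than the authors', which gave symbols and positions. Reads carry no molecular identifiers, so the floor of 3 counts covers counting error only.

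The 10 genes and the pathway lists were chosen with earlier results of these data known. After filterByExpr and TMM normalization, counts were tested by quasi-likelihood in edgeR 4.0.16 (R 4.3.3, limma 3.58.1), with Benjamini-Hochberg adjustment over all genes of a fit. Fits held the 12 libraries of a line, the 48 of the lines with Grpr, the 24 of a Grpr line and its control, or all 72 for resting levels. A standard error is the size of the log2 fold change over the root of its F value. The exact permutation used log2(CPM + 1). No pair of replicates agreed within sampling noise (chi-square per degree of freedom of at least 2.56). The genes named besides the 10 were set by a rule: pathway genes called in at least 2 lines or with the largest called change in a line, Rela, Rel, the label checks and the 3 genes most like Nfkbia, Nfkbiz, Tnfaip3 and Icam1.

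The tests were tried on simulated data in which 200 genes were changed in each line (13534 to 14280 genes). By the adjusted p alone, GRP against mock recovered 92% to 97% of 2-fold and 100% of 4-fold changes, with at most 10 false passes. The simulation gave every gene and line the same spread, held no differences between replicate numbers and changed no gene of low counts. It thus does not show how many changes would be found in lines with a wider spread, such as 1064. Same-numbered replicates deviated together, with every correlation over 0.1, in 1064 (mean r 0.825), 1014-Grpr (0.620) and 1181-Ctrl (0.898), and not in 1057 (0.0448) or 1014-Ctrl. In 1181-Grpr those of GRP and mock did (0.669 to 0.846), but only 15 of 18 pairs over all treatments (mean r 0.495). The labels do not state a pairing, so the number entered an alternative only. The other alternatives were DESeq2 1.42.0, no filter on low counts, each replicate left out, a fit of all 72 libraries, the adjusted p alone, and the 2 libraries that go against their labels left out. Plots used matplotlib 3.10.9.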

Additional observations from a re-analysis of the deposited data

Results flagged for a closer look

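Of the 10 genes, 6 had an effect of GRP that differed among the 4 lines with Grpr, against 7.48% of all genes. The difference itself was tested (edgeR's quasi-likelihood F test with 3 degrees of freedom, Benjamini-Hochberg adjusted). Without replicate 2 only Nfkb2 and Nfkbiz passed, and Nfkbia and Ier3 did not pass without replicate 1 either. The adjusted p was 1.97e-05 for Nfkb2, 4.21e-04 for Nfkbiz, 9.31e-04 for Tnfaip3, 0.00214 for Relb, 0.00575 for Nfkbia and 0.0310 for Ier3. The log2 fold changes behind these values ran from -0.55 in 1057 to 0.85 in 1014-Grpr for Nfkbia and from 0.09 in 1181-Grpr to 1.27 in 1057 for Nfkbiz. For Tnfaip3, Relb, Nfkb2 and Ier3 the highest was 2.26, 1.61, 1.52 and 1.01, each in 1014-Grpr.

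The effect of GRP also differed between 1014-Grpr and 1014-Ctrl, by the test of the difference in 1 fit of both lines, for 4 genes past the threshold of size. Over all genes 3.01% were called as higher, and Ier3 did not pass without replicate 2. The log2 difference was 2.37 for Tnfaip3, 1.57 for Relb, 1.55 for Nfkb2 and 1.17 for Ier3.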

How the results depend on the processing

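Of the 31 comparisons, 22 called none of the 10 genes, and a count of 0 says little about stability. For the other 9, counts of called genes stayed within 1.5 times in 64 of 76 repeats under other settings. Of 270 repeats of single log2 fold changes after GRP, 235 kept their direction and their side of the adjusted p of 0.05, 24 no longer passed, 3 newly passed and 8 changed sign. With the adjusted p alone, and no threshold of size, more of the 10 genes passed, given here with the share of all genes that passed in either direction. After GRP they were 8 in 1057 (52.6%), 5 in 1064 (6.38%) and 9 in 1014-Grpr (29%), and after RC 3 in 1057 (24.3%). GRP+RC against mock gave 7 in 1057 (44.3%) and 2 in 1014-Grpr (0.947%). GRP+RC against GRP gave 5 in 1057 (24.7%) and 8 in 1014-Grpr (11.8%). The mean effect gave 6 (28.5%), the difference between the 1014 lines 7 (13.6%), and resting 1181-Grpr against 1181-Ctrl 3 (15.7%). A fit of all 72 libraries called 3 after GRP in 1014-Grpr. Leaving out single replicates, the count ran from 0 to 3 after GRP in 1064 (0 without replicate 1 or 2), from 0 to 1 for GRP+RC against mock in 1057 (1 without replicate 1), from 2 to 5 for the difference among the 4 lines (2 without replicate 2) and from 3 to 5 for resting 1057 against 1064 (3 without replicate 1).

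The replicate block called the same number of the 10 genes after GRP in each line as the fit without it, for example 2 in 1064, where the number of all called genes went from 320 to 900 (491 in DESeq2 and 682 in a fit of all 72 libraries). For the difference among the 4 lines, 1219 genes of all passed, 5468 with the block, 8094 with the block and without the 2 libraries, and 449 to 485 with a replicate left out. For resting 1014-Grpr against 1014-Ctrl, 570 genes of all were called, 174 with the block and 77 without the 2 libraries. In 1181-Grpr the block without the 2 libraries called 16 genes of all and none of the 10. The log2 fold changes that changed sign were those of Bcl3 in 1064 (-0.33 to 0.10 with a replicate left out, positive without replicate 1) and 3 in 1181-Grpr. There Nfkbia ran from -0.086 to 0.051 with a replicate left out, positive without replicate 1 or 2, and was 0.0054 with the block and 0.00069 with the block and without the 2 libraries. Nfkb1 ran from -0.071 to 0.022, positive without replicate 2, and Bcl3 from -0.22 to 0.020, positive without replicate 1 or 3. The cause was not tested, and none of these had passed. With CPM in place of TPM the order of the lines was the same for 7 of the 10 genes and differed for Nfkbia, Nfkbiz and Nfkb1. Depth limits Icam1, Bcl3 and Birc3 in 1181-Ctrl, which lay at or near the floor.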

Other observations

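The cytokine gene Il6 and the prostaglandin gene Ptgs2 of the target list were close to the floor, and their raw counts are given in place of folds. Il6, an inflammatory cytokine, had 0 to 2 counts in the mock libraries and 16 to 35 counts in the GRP libraries of 1057, 0 to 3 and 1 to 21 in 1064, 0 to 3 and 5 to 20 in 1014-Grpr, and 0 to 1 in both groups of 1181-Grpr. Ptgs2, the inducible cyclooxygenase, had 1 to 4 counts with mock and 20 to 28 counts with GRP in 1057, and 0 to 2 and 16 to 62 in 1014-Grpr. In 1064 it had 0 to 4 counts with mock and 1 to 4 with GRP. Il6 passed edgeR's filter on low counts in 1057 alone, where it was called after GRP, as Ptgs2 was in 1057 and 1014-Grpr.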
